A study of Pinellia ternata with 12 samples.

Results

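A set of 244 unigenes of the Pinellia ternata leaf was abundant in control plants and fell to 25% or less of its control level in heat-stressed plants. A unigene is a transcript unit assembled from the reads without a genome. The 244 were chosen from the 208217 unigenes of the abundance table by 3 conditions on the same 6 libraries: a mean of at least 30 TPM in the controls, a heat mean of at most 25% of the control mean, and every control library above every heat library. TPM (an abundance unit, short for transcripts per 1000000) is a value corrected for transcript length and scaled to the same total in each library. Of 3885 unigenes with a control mean of at least 30 TPM, 6.28% met the rule, and of the 68978 unigenes that entered the linear model described further on, 2.74% met its conditions on fold and overlap. A mavicyanin pair set aside by name did not meet it.

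P. ternata is a medicinal aroid that sprouts from tubers, and its seedlings were used here at the three-leaf stage. The 3 control RNA-seq libraries came from leaves of wild-type plants grown at 25 ℃ and sampled at 0 h of heat on day 0, and the 3 heat libraries from leaves of plants held for 24 h at 40 ℃ and sampled on day 1, all under 4000 lx with 16 h of light and 8 h of darkness a day. Small RNA was sequenced in 3 further control and 3 further heat libraries of the same design. The groups were sampled 24 h apart, so heat and time cannot be told apart. A treatment label calls every library heat-treated, and the groups were therefore taken from the sample titles, with which source and day accord. No cell type was sorted, and the sources name too few of these unigenes to check the leaf by its markers. In whole leaves, fewer cells of a type and less RNA per cell cannot be told apart.

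As background, a leaf spends a large share of its messenger RNA on a small number of genes, many of them for photosynthesis, and heat stress is known to shift plant transcript pools within hours, with chaperone transcripts rising while many growth and housekeeping transcripts decline through lower transcription and faster RNA decay. A transcript pool is a composition: when a few abundant transcripts shrink, the share of all others grows. The names used here come from part of the study's annotation, 705 transcripts that rose and some predicted miRNA targets, and the rest of it was not used here, so nearly all 244 unigenes are given by their assembly number only. In that part a single one, DN54800_c0_g1, has function terms, lipid binding and lipid transport, and none has a protein name. The numbers below omit the prefix of the assembler, and unigenes that share a number up to its g come from 1 assembly cluster and may share reads.

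Together the 244 unigenes held 68803, 57137 and 86716 TPM in control replicates 1, 2 and 3 and 11699, 9068 and 9139 TPM in heat replicates 1, 2 and 3. They made up 5.71% to 8.67% of all TPM in the controls and 0.907% to 1.17% under heat. The groups stood far apart, which the rule fixes for each member, and the heat libraries lay close to each other. The mean sum was 70885 ± 14899 TPM (SD, n = 3) in the controls and 9969 ± 1499 TPM (SD, n = 3) under heat, which is 14.1% of the control sum. Without the 5 members of the highest control mean, which held 36.7% of the control sum, the heat sum was 11.9% of the control sum. The other 3641 unigenes of at least 30 TPM in the controls came to 574267 ± 19043 TPM (SD, n = 3) in the controls and 538105 ± 37446 TPM (SD, n = 3) under heat, or 93.7%.

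**Figure D1:**
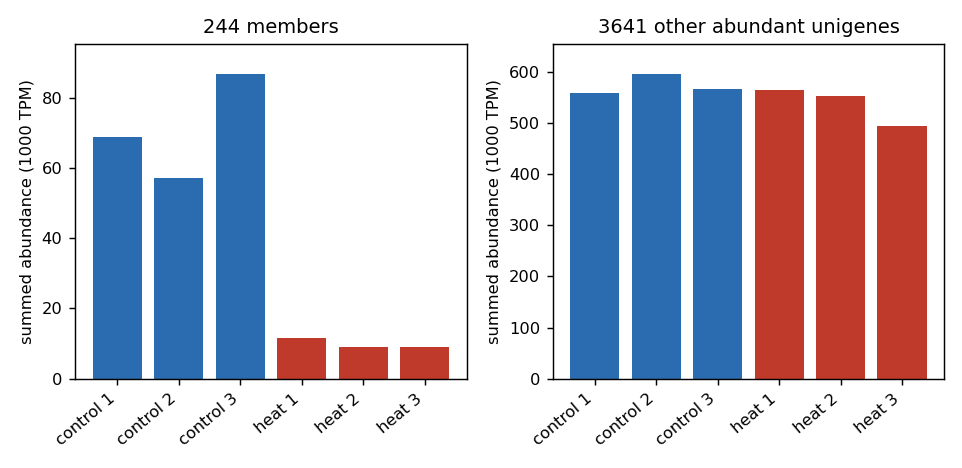
Summed abundance in units of 1000 TPM in each of the 6 RNA-seq libraries, for the 244 members on the left and for the 3641 other unigenes of at least 30 TPM in the controls on the right, with axes that start at 0 and differ in scale. The members sum to 57137 TPM or more in each control library and to 11699 TPM or less in each heat library.

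The opposite rule, with heat and control exchanged, was met by 266 unigenes. Those summed to 4510 ± 925 TPM (SD, n = 3) in the controls and 61946 ± 19098 TPM (SD, n = 3) under heat. Between the group means the members lost 60916 TPM and that set gained 57436 TPM. Both sets were picked by thresholds, so their like size is not read as an exchange between them. The other abundant unigenes also fell in sum. All unigenes with a control mean under 30 TPM summed to 354848 ± 14824 TPM (SD, n = 3) in the controls and 451926 ± 38380 TPM (SD, n = 3) under heat. In the set of the opposite rule, heat replicate 1 was the lowest of the 3 heat libraries, at 40476 TPM against 77043 and 68319 TPM. In the same library the members stood highest. Unigenes annotated as a polyprotein, 11 in number and taken here as those of a potyvirus, summed to at most 0.0611 TPM in the controls. They summed to 606, 4409 and 3420 TPM in heat replicates 1 to 3, which is up to 0.441% of a library. No sequence was used to check that name. These 11 were found among annotated transcripts that rose, so their low control values follow from that choice. Viral unigenes that did not rise could not be seen. Their part in the fall was not tested. With the TPM total taken without the 11, which changes the total only, 2775 unigenes were called lower, against 2793 with them.

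A linear model across all tested unigenes (limma on log2(TPM + 1), with calls at a log2 fold change beyond 1 in size and a Benjamini-Hochberg adjusted p below 0.05) called 2793 unigenes lower under heat and 4142 higher, of 68978 with a mean of at least 1 TPM. All 244 members entered that fit and all 244 were called lower, against 4.05% of all tested unigenes and 15.8% of those with a control mean of at least 30 TPM. The rule used the same values as the model, so this count describes the rule and nothing is read from it. The median log2 fold change was -2.87 for the members, -0.18 for the other abundant unigenes and 0.17 for all tested unigenes. With each library rescaled by its median ratio to the others, the median of all unigenes moved to -0.03 and that of the members to -3.11, and 4202 unigenes were called lower against 2752 higher, the opposite split.

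**Figure D2:**
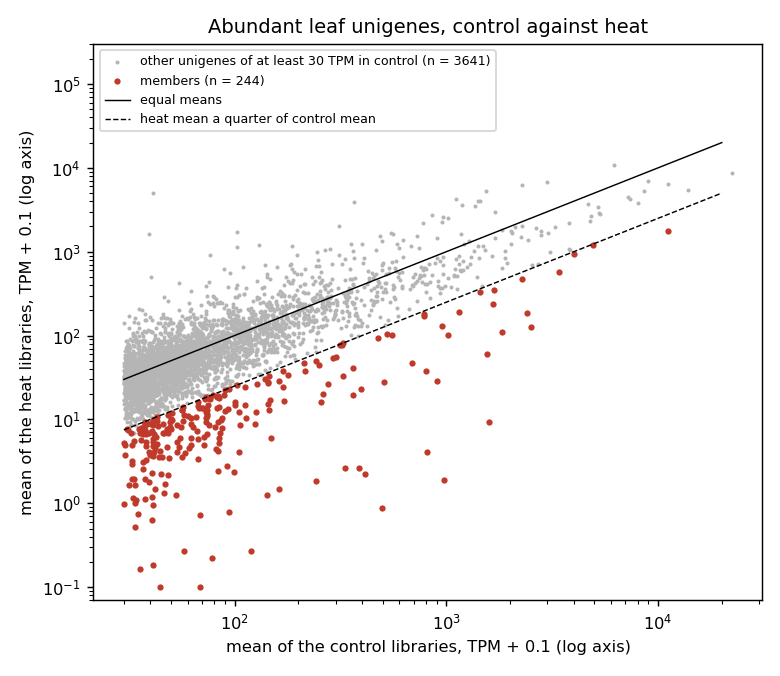
Mean of the 3 heat libraries against mean of the 3 control libraries, in TPM + 0.1 on log axes, for the 3885 unigenes with a control mean of at least 30 TPM. The 244 members (red) lie below the dashed line at 25% of the control mean, from 30.01 to 11137 TPM in the controls, and the solid line marks equal means.

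Members were found at every level of abundance. Of the unigenes with a control mean from 30 to 100 TPM, 168 of 2880 were members (5.83%), of those from 100 to 1000 TPM 61 of 913 (6.68%), and of those of 1000 TPM or more 15 of 92 (16.3%). These 15 held 60.1% of the control sum of the members. Among the 100 unigenes of the highest control mean, 16 were members, and among the 100 of the highest heat mean, 3 were. The median control mean of a member was 68.1 TPM and the median heat mean 8.45 TPM.

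How far a member fell varied widely. The heat mean was a median of 13.4% of the control mean, with quartiles of 6.53% and 19.4%. The heat mean was 4 to 5 times lower in 56 members, 5 to 8 times in 70, 8 to 16 times in 58, 16 to 64 times in 39, and 64 times or more in 19, and the other 2 were listed at 0 in every heat library. The depth of the fall did not follow the control level in a simple way, since the median heat percentage was 13.8% in the class of 30 to 100 TPM, 11.3% in that of 100 to 1000 TPM and 15.9% in that of 1000 TPM or more. Under heat, 37 members still averaged at least 30 TPM, 76 averaged less than 5 TPM and 17 less than 1 TPM.

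The most abundant member was DN62727_c1_g1. It stood at 12361, 8003 and 13047 TPM in the controls and at 1549, 1828 and 1926 TPM under heat, so that its lowest control library was 4.15 times its highest heat library. It belongs to a cluster with 5 members, the largest number in any cluster, which summed to 18814, 13449 and 21651 TPM in the controls and to 3494, 3297 and 3200 TPM under heat. Those 5 fell to unlike degrees. DN62727_c1_g2 was at 4638, 3958 and 6257 TPM in the controls and 1531, 1130 and 965 TPM under heat, or 24.4% of its control mean. DN62727_c1_g5 was at 392, 337 and 453 TPM in the controls and 23.4, 22.4 and 23.7 TPM under heat, or 5.88%, and DN62727_c1_g3 was down to 2.18%. A sixth unigene of at least 30 TPM in the cluster, DN62727_c1_g4, is no member, with 172, 165 and 137 TPM in the controls and 48.0, 78.1 and 87.8 TPM under heat, or 45.2% (log2 fold change -1.17 ± 0.28 (SE), limma adjusted p = 0.0260).

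Of the other members among the 12 most abundant, 4 stayed at 330.1 TPM or more in every heat library. DN46762_c0_g3 was at 4127, 3439 and 4426 TPM in the controls and at 1004, 1046 and 764 TPM under heat. DN74784_c3_g1 was at 3763, 2744 and 3703 TPM in the controls and at 562, 569 and 580 TPM under heat, the narrowest spread among the heat libraries of the 12 most abundant members relative to the mean. DN56034_c1_g3 stood at 2370, 2113 and 2366 TPM in the controls and 569, 461 and 371 TPM under heat, and DN55876_c1_g1 at 1595, 1506 and 1948 TPM against 383, 339 and 330 TPM. These 4 kept between 16.8% and 23.5% of their control mean.

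Others of like control level fell much further. DN50313_c1_g1 was at 2433, 1883 and 3204 TPM in the controls and at 116, 146 and 118 TPM under heat, 5.04% of its control mean. DN56578_c1_g2 was at 2682, 1795 and 2774 TPM in the controls and at 206, 144 and 202 TPM under heat, 7.62%. DN55295_c0_g1 was at 1636, 1292 and 2589 TPM in the controls and at 102, 96.2 and 134 TPM under heat, 6.02%. In each of these the 3 heat libraries lay close together, well under the lowest control library. DN48321_c1_g3 differed, since heat replicate 1 was at 470 TPM while heat replicates 2 and 3 were at 117 and 119 TPM, against 1198, 1314 and 2467 TPM in the controls. DN63714_c0_g2 was at 1893, 819 and 1951 TPM in the controls and at 34.6, 54.0 and 89.6 TPM under heat, 3.82%.

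The largest falls on the log2(TPM + 1) scale, which understates those of unigenes near 0, took abundant transcripts down to a few TPM. DN58401_c1_g1 was the only one of the 12 most abundant members among the 6 largest fitted falls, with 1185, 1207 and 2389 TPM in the controls and 17.8, 2.93 and 7.15 TPM under heat. DN58401_c1_g2, of the same cluster, went from 347, 297 and 515 TPM to 3.95, 1.69 and 1.89 TPM, and the 2 kept 0.583% and 0.650% of their control means. DN65933_c0_g1 went from 1132, 535 and 1269 TPM to 5.11 and 0.334 TPM in heat replicates 1 and 2 and was listed at 0 in heat replicate 3. The heat libraries thus differed from each other by more than 10 times in this unigene while all lay far under the controls.

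The same depth of fall was seen in DN59603_c0_g1, at 539, 613 and 1286 TPM in the controls and 7.95, 1.55 and 2.63 TPM under heat. DN59175_c1_g1 went from 442, 285 and 757 TPM to 0.369, 0.877 and 1.07 TPM, which is 0.156% of its control mean. DN59175_c0_g2 went from 324, 251 and 671 TPM to 3.56, 2.63 and 0.174 TPM. A further 2 members were listed at 0 in all 3 heat libraries: DN49484_c0_g1, at 42.9, 28.9 and 60.7 TPM in the controls, and DN54856_c1_g2, at 46.3, 34.9 and 124 TPM. The number of reads behind these values is unknown because only TPM was deposited, so no fold is given for them. By the plain ratio of means, other members of lower control level fell as far, such as DN54932_c1_g1, from a mean of 119.9 TPM to 0.166 TPM.

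**Figure D3:**
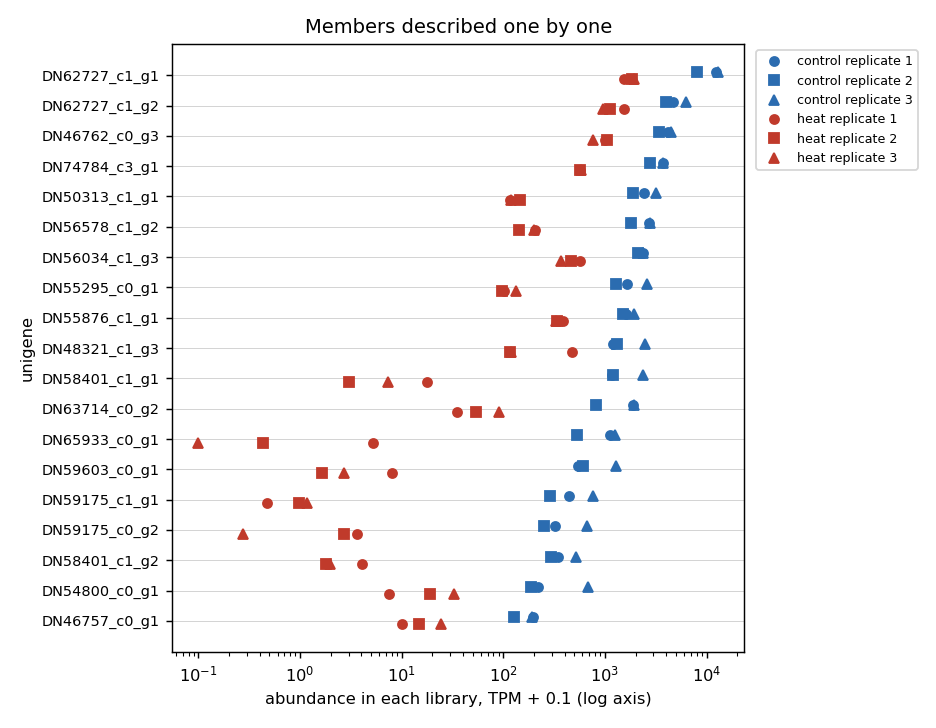
Abundance in each library, in TPM + 0.1 on a log axis, of the 19 members described singly: the 12 of the highest control mean, the 6 of the largest fitted fall, and those with a function term or a predicted miRNA. Control libraries are blue and heat libraries red, with 1 symbol for each replicate number, and the heat values spread over more orders of magnitude than the control values, from 0 to 1926 TPM.

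The lowest control library was a median of 3.71 times the highest heat library. It was at least 2 times the highest heat library in 215 members and at least 4 times in 112, and the smallest such ratio was 1.14. Every control library lay above every heat library in 31.5% of the unigenes of at least 30 TPM and in 11.2% of all tested unigenes. Without the condition on overlap 246 unigenes would have met the rule, and the added 2, DN45699_c0_g1 and DN59179_c0_g2, had control replicate 3 within the range of the heat libraries, at 9.61 and 12.5 TPM.

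Just inside the limit on the fold stood DN65830_c0_g1, with a mean of 90.2 TPM in the controls and 22.5 TPM under heat, and just outside stood DN68214_c0_g2, with 34.0 and 8.53 TPM. Just inside the limit on the control mean was DN75359_c7_g4, with 30.01 and 5.12 TPM, and just outside was DN45165_c0_g1, with 29.5 and 4.98 TPM. The set has no gap at its borders, and 360 unigenes met the rule with a heat mean of at most 1/3 of the control mean.

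The rule was also applied to 5 libraries at a time, and the unigenes so chosen were read in the library left out. That library was compared with libraries of the other group whose values had also chosen the unigenes. The shares below are thus partly fixed by the choice and are no independent replication. Chosen without control replicate 3, 201 unigenes met it, and in 167 of them (83.1%) control replicate 3 was above the highest heat library and at least 4 times the heat mean, against 6.34% of all 3927 unigenes abundant in the other controls. The share was 79.1% for control replicate 1 and 69.3% for control replicate 2. For a heat library left out, the share that lay under the lowest control library and at or under 25% of the control mean was 93.7% in heat replicate 2 and 81.2% in heat replicate 3, against 11.9% and 7.62% of the abundant unigenes. Heat replicate 1 gave the lowest share, 185 of 326 unigenes (56.7%) against 5.84%, and its median level in them was 22.7% of the control mean, compared with 8.29% in heat replicate 2 and 12.8% in heat replicate 3.

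Control replicate 3 stood above the other controls in most members. It was the highest control library in 189 of 244 members (77.5%), compared with 35.5% of the other 3641 abundant unigenes and 15.8% of the 266 unigenes of the opposite rule. Its ratio to the mean of control replicates 1 and 2 had a median of 1.48 in the members, 0.96 in the other abundant unigenes and 0.71 in those of the opposite rule. The ratio was larger where the fall was larger, with a median of 1.35 in members 4 to 5 times lower, 1.36 at 5 to 8 times, 1.52 at 8 to 16 times, 1.64 at 16 to 64 times and 2.04 at 64 times or more. Control replicate 3 was the highest in each of the 19 members of the last class and in both members listed at 0 under heat.

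The gradient went on outside the members, with a median ratio of 1.21 in abundant unigenes that were 2 to 4 times lower, 1.02 in those lower by less than 2 times, 0.86 in those higher by less than 2 times and 0.82 in those higher by more. A high value in control replicate 3 raises the control mean and so the fold. With the fold taken from control replicates 1 and 2 only, the median ratio was 1.41 in members lower by less than 8 times. It was 1.35 at 8 to 16 times and 1.72 in the 49 members at least 16 times lower. Members with a small fold of this kind could meet the rule through a high control replicate 3, so no order is read from these classes. Control replicate 3 was the highest in 48 of those 49. Over all abundant unigenes classed that way the median ratio rose with the fall. It was 0.96 from 0.5 to 2 times, 1.07 from 2 to 4, 1.29 from 4 to 8, 1.35 from 8 to 16 and 1.72 at 16 or more. The classes from 8 to 16 and at 16 or more hold the same unigenes as the member classes above. The limit of 30 TPM was set on a control mean that includes control replicate 3, so unigenes high in it could enter through it. Within these limits, the controls differed among themselves along the same direction in which heat differed from control. What set control replicate 3 apart was not tested.

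**Figure D4:**
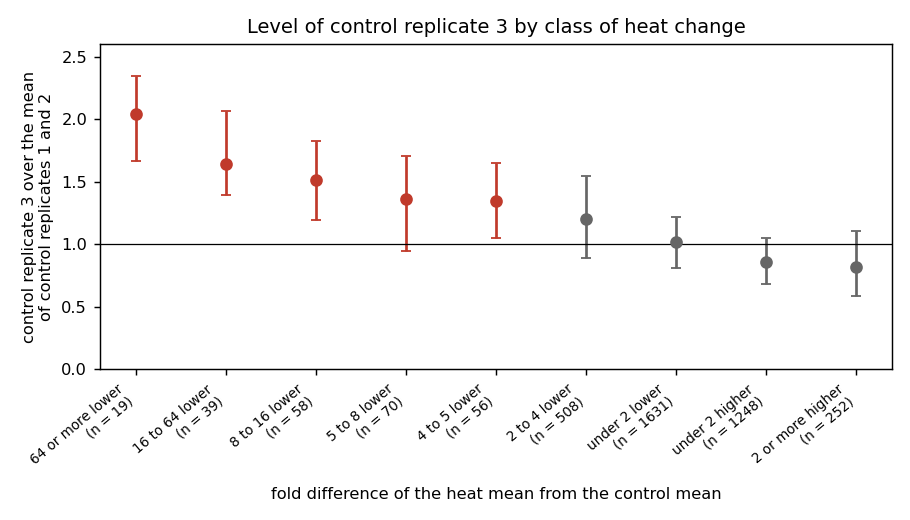
Ratio of control replicate 3 to the mean of control replicates 1 and 2, by how far the heat mean was from the control mean, for members (red) and other unigenes of at least 30 TPM in the controls (grey). Points are medians over unigenes and bars run from the lower to the upper quartile, and the medians go from 2.04 in the members that fell most to 0.82 in the unigenes that rose most.

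Replicates varied more in the members than in other abundant unigenes. The median coefficient of variation was 32.7% in the controls and 48.4% under heat, against 18.5% and 23.7% in the other abundant unigenes. It was larger still in the unigenes of the opposite rule, at 37.8% and 56.0%. In the other abundant unigenes that were 2 to 4 times lower it was 23.8% and 36.0%. A large spread was thus not particular to the members, since that of the opposite rule was larger. These sets were not matched for abundance, so the differences in spread between them are not read further. Control replicate 3 was at least 2 times both other controls in 28 members, control replicate 1 in 2, and control replicate 2 in 0. Heat replicate 1 was at least 2 times both other heat libraries in 41 members, heat replicate 3 in 10 and heat replicate 2 in 2. At 2 times or more below both others, heat replicate 2 was found in 46 members, heat replicate 3 in 25 and heat replicate 1 in 20. Heat replicate 1 was the highest heat library in 135 of the 242 members with a heat value above 0 (55.8%), and in 49.2% of the other abundant unigenes.

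Some clusters carried this difference among the heat libraries in the sum of their members. The 3 members of cluster DN72464_c2 summed to 1373, 1623 and 2164 TPM in the controls and to 373, 111 and 47.6 TPM under heat. The 3 members of cluster DN46944_c0 summed to 934, 1060 and 1408 TPM in the controls and to 322, 98.4 and 31.8 TPM under heat. In both the heat libraries spanned more than 7 times, with heat replicate 1 the highest. The 3 members of cluster DN63291_c0 went another way, with 697, 1274 and 833 TPM in the controls and 234, 41.6 and 268 TPM under heat, so that heat replicate 2 alone was low.

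The 244 members came from 199 assembly clusters. A single member was found in 164 clusters, 2 in 27, 3 in 7 and 5 in 1. In 26 of the 35 clusters with 2 or more members, the members' heat percentages lay within 2 times of each other. The rule holds every member at or under 25%, and members of a cluster may share reads, so nothing about clusters is read from this count.

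Another 337 unigenes shared a cluster with a member without meeting the rule. Of the 194 that were tested, 97 (50%) were called lower, against 4.05% of all tested unigenes, and 8 were called higher, with a median log2 fold change of -1.26. A cluster mate may share reads with its member and is no independent measure. Of the 25 with a control mean of at least 30 TPM, 13 were called lower and none higher, against 15.8% called lower of all unigenes at that level. Their heat means were 25.1% to 110% of the control means with a median of 44.98%. The rule sets the lower end of that range, since a mate at or under 25% without overlap is a member.

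The other 12 of these mates, in 10 of the 18 clusters, were not called, and the 2 of the highest heat percentage were among them. DN63714_c0_g1 was at 806, 807 and 655 TPM in the controls and 511, 748 and 712 TPM under heat (log2 fold change -0.22 ± 0.27 (SE), limma adjusted p = 0.645), while its cluster mate DN63714_c0_g2, a member, kept 3.82%. DN73642_c2_g4 was the only abundant mate with a higher mean under heat, at 108, 70.3 and 86.6 TPM in the controls and 61.7, 111 and 119 TPM under heat (log2 fold change 0.10 ± 0.30 (SE), limma adjusted p = 0.858). The most abundant mate, DN74784_c3_g2, was at 12902, 12695 and 16040 TPM in the controls and 7649, 4589 and 4052 TPM under heat, which is 39.1% of control (log2 fold change -1.40 ± 0.37 (SE), limma adjusted p = 0.0395).

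**Figure D5:**
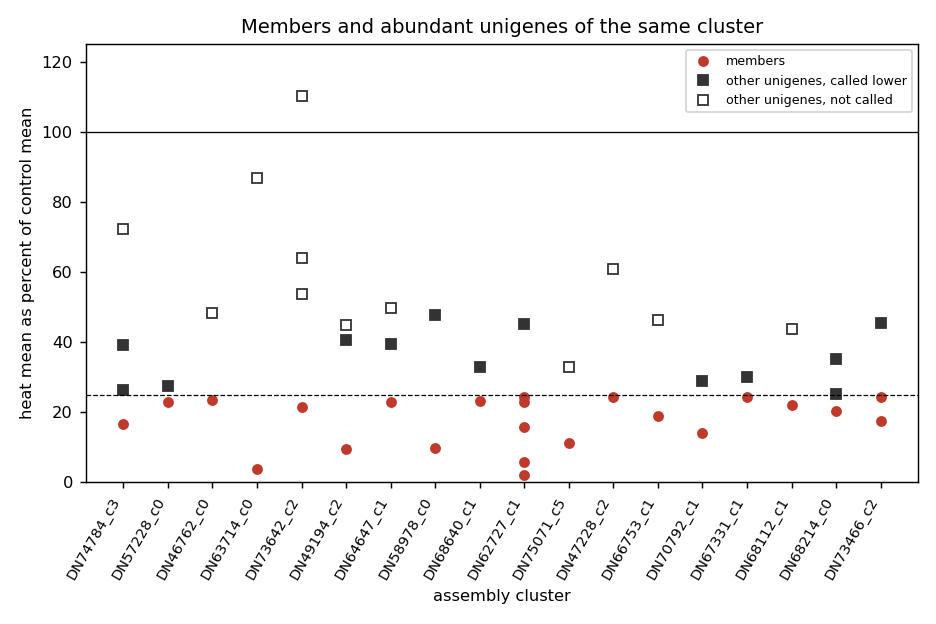
Heat mean as percent of the control mean for members (red circles) and for the 25 other unigenes of at least 30 TPM in the same 18 clusters, with filled squares for those called lower by limma and open squares for those not called. The dashed line marks 25% and the solid line 100%, and 24 of the 25 mates lie below 100%.

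Of the cluster mates, 2 carry a protein name. DN64386_c0_g1 was matched to 3-ketoacyl-CoA synthase 5 of Arabidopsis, an enzyme family that lengthens very-long-chain fatty acids for cuticular wax. It stood at 11.7, 15.3 and 7.43 TPM in the controls and 19.8, 22.1 and 54.9 TPM under heat (log2 fold change 1.32 ± 0.40 (SE), limma adjusted p = 0.0599), and so was not called, while DN64386_c0_g2, the member of that cluster, went from 33.3, 15.4 and 59.2 TPM to 2.55, 5.18 and 8.92 TPM. Whether this pair belongs to 1 gene cannot be read from the cluster number. DN65942_c0_g2, matched to transmembrane protein 45A, was at 12.5, 10.8 and 9.28 TPM in the controls and 3.59, 4.06 and 5.32 TPM under heat (log2 fold change -1.16 ± 0.26 (SE), limma adjusted p = 0.0203), beside the member DN65942_c0_g1, which kept 21.2% of its control mean.

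The member with function terms, DN54800_c0_g1, is annotated to lipid binding and lipid transport, terms that in plants commonly mark lipid transfer proteins, small secreted proteins that carry lipids to the cuticle. It stood at 218, 186 and 685 TPM in the controls and at 7.39, 18.7 and 32.3 TPM under heat, or 363 ± 279 and 19.4 ± 12.5 TPM (SD, n = 3). Control replicate 3 was more than 3 times the other controls. Without it the control mean was 202 TPM and the log2 fold change -3.52, against -4.11 with it. Of 8 tested unigenes with these terms, a list chosen after this annotation was seen, 2 were called lower and 0 higher, with a median log2 fold change of -0.23. The other call was DN54254_c1_g1, at 20.2, 26.0 and 17.3 TPM in the controls, with a log2 fold change of -1.93 ± 0.35 (SE) and a limma adjusted p of 0.00952. It is a predicted miRNA target that the study picked for a fall in these same libraries. Both calls were thus set by selection and support nothing.

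Other annotated groups held no member, but few of their unigenes were abundant enough to be one. Of 24 tested unigenes given as lowered miRNA targets, which were picked for a fall in these same libraries and so give no independent evidence of one, 19 were called lower and 0 higher, with a median log2 fold change of -1.62, and 6 had a control mean of at least 30 TPM. The most abundant of them was DN71342_c3_g1, a mavicyanin (a small copper protein), whose 241 TPM in the controls fell to 64.1 TPM under heat, just short of the limit. The chloroplast ribosomal proteins L35 (DN62981_c1_g1) and L29 (DN63923_c0_g3) were next, with log2 fold changes of -1.10 ± 0.22 (SE) and -1.17 ± 0.24 (SE) and limma adjusted p of 0.0147 and 0.0148.

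Of 18 tested unigenes with cell wall or extracellular terms, 3 were called lower and 1 higher, with a median log2 fold change of -0.46, where 4.05% of all tested unigenes were called lower and 6% higher. Of 27 with chloroplast terms, 1 was called lower and 2 higher, with a median of -0.06. Of 10 with ribosome terms, 2 were called lower and 1 higher, with a median of 0.21. Of 6 with a protein kinase term, limma called none in either direction, 1 had an unadjusted p under 0.05, and the median was -0.11. The median of all tested unigenes on the same scale was 0.17. A control mean of at least 30 TPM was reached by 2 unigenes with cell wall or extracellular terms and 7 with chloroplast terms. It was reached by 2 with ribosome terms and 0 with the kinase term. Of all unigenes at that level 6.28% were members, so nothing is read from the absence of members in lists this small. These terms cover predicted miRNA targets only, so the lists are small samples of each group. They also share unigenes with the lowered targets above, which were picked for a fall. Such targets are DN54325_c0_g2 and DN69416_c1_g2, called lower with cell wall or extracellular terms, and DN59178_c0_g1, called lower with a chloroplast term. The calls lower are thus partly fixed by that choice and give no independent evidence.

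MicroRNAs of about 21 bases guide the silencing of transcripts that they match, and in plants a close match usually leads to cleavage of the target, with the seed at bases 2 to 8 among the positions where pairing counts most. In the part of the study's target list used here, which holds 1998 miRNA and target pairs and is not the whole list, 3 of the 244 members appear as predicted targets of a known miRNA, at an expectation of 3 or 4, a mismatch score on which lower values are closer matches. That list covers only miRNAs that the study had called changed in these same small RNA libraries. The mature sequences of the 3 miRNAs are shown because they link both assays for these members, with the seed in capitals, 5′ to 3′. ath marks a sequence first described in Arabidopsis thaliana and osa one from Oryza sativa.
ath-miR5633: uAUGAUCAucagaaaacagug
osa-miR2931: cUUUAUUGuugaugucaaaa
ath-miR826b: uGGUUUUGgacacgugaaaau

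The 3 seeds differ from each other, and each miRNA is paired with a different member. ath-miR5633 is predicted to bind DN59175_c1_g1 at bases 617 to 638 with an expectation of 3, osa-miR2931 to bind DN54800_c0_g1 at bases 13 to 31 with an expectation of 4, and ath-miR826b to bind DN46757_c0_g1 at bases 507 to 527 with an expectation of 4. DN46757_c0_g1 stood at 198, 127 and 189 TPM in the controls and at 10.02, 14.8 and 24.3 TPM under heat. All 3 targets thus stood lower under heat by the rule itself.

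The miRNAs themselves rested on few reads. The small RNA values were deposited as RPM (reads per 1000000 reads assigned to known miRNAs), and whole reads were recovered from them for all 9582 values, within 0.01 reads. ath-miR5633 had 2, 325 and 13 reads in control replicates 1 to 3 and 4, 3 and 6 in the heat libraries, which is 2.17, 159 and 14.9 RPM against 3.86, 6.26 and 4.07 RPM. osa-miR2931 had 5, 87 and 6 reads against 3, 1 and 8, and ath-miR826b had 1, 93 and 0 reads against 0, 0 and 1. In each of them 1 library, control replicate 2, was high, and the other controls overlapped with the heat libraries.

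Control replicate 2 held 90.3% of the control RPM of ath-miR5633, 77.6% of that of osa-miR2931 and 97.7% of that of ath-miR826b. It was also the deepest small RNA library, with 2039055 assigned reads against 479324 to 1475482 in the others. The log2 fold changes on log2(RPM + 1) were -1.83 ± 1.30 (SE), -1.61 ± 0.92 (SE) and -1.95 ± 1.30 (SE), with limma adjusted p of 0.697, 0.605 and 0.682, so none of the 3 was called. A count model on the recovered reads (edgeR) put ath-miR5633 and ath-miR826b at unadjusted p of 0.0299 and 0.0281, lower under heat, with an adjusted p of 0.396 for each. Of all 1597 miRNAs, 7.14% were lower and 2.13% higher at an unadjusted p below 0.05 and a log2 fold change beyond 1 in size, and 0.0626% passed an adjusted p under 0.05. Without control replicate 2 the log2 fold changes of the 3 were -0.33, -0.74 and -0.28. The 3 are no unselected sample, since the target list holds only miRNAs that the study called changed in these libraries. Their direction is thus no independent evidence. No rise of a miRNA beside the fall of its predicted target was seen for these 3 members, and at depths where 1 read stands for 0.490 to 2.09 RPM, changes of a few RPM were not detectable.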

How the data were processed

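RNA-seq and small RNA-seq were each run on 3 control and 3 heat leaf libraries. The authors made strand-specific libraries, assembled the reads with Trinity without a genome, and deposited TPM per unigene, estimated with Salmon. Every column sums to the same total, so depth cannot be read from it. The authors deposited small RNA values as RPM of reads of 17 to 35 bases matched to known plant miRNAs. Libraries were grouped by title, and the label replicates were taken as biological as the study states.

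TPM was tested with limma 3.58.1 (eBayes with trend, R 4.3.3) on log2(TPM + 1) after a filter at a mean of 1 TPM, on which folds of low unigenes are understated, and RPM likewise without a filter, with edgeR 4.0.16 and DESeq2 1.42.0 on recovered reads as alternatives. The fits were also run on simulated data with known changes, in which unigenes varied independently and no shift of a whole library was added. That run says nothing about such shifts or about shared reads. Members and lists were chosen with earlier results of these data known, and the members by the values described, so their calls are a description and support nothing. Unigenes were described singly if they were among the 12 of the highest control mean or the 6 of the largest fitted fall, lay beside a threshold, or carried an annotation; clusters of 3 or more members, members at 0 and cluster mates without a name were picked after their values were seen. Names come from predicted targets, function terms and 705 annotated rises in the study's supplements. Unigene sequences were not used here.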

Additional observations from a re-analysis of the deposited data

How the results depend on the processing

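Between 201 and 326 unigenes met the rule with 1 library left out, against 244. A control minimum of 10 or 100 TPM gave 594 or 76, and a heat mean of at most 1/8 gave 118. The count of unigenes called lower, 2793, was 804 without a filter and 4202 with median ratio rescaling, which turned the split from 40.3% to 60.4% lower, and 55.5% with quantile normalization; leaving out 1 library gave 1367 (control replicate 3) to 3699 (heat replicate 1). Counts without control replicate 1, control replicate 2, heat replicate 2 and heat replicate 3 were 1472, 1770, 1521 and 1546. Of the members, 219 to 243 were called with 1 library left out and 243 with a pseudocount of 0.1. The heat sum, 14.1% of control, was 11.8% with median ratio rescaling, 11.9% without the 5 highest members, and 12.8% to 15.8% with 1 library left out. For 19 members described singly, 181 of 190 log2 fold changes under 10 alternatives moved by less than 1 SD between replicates and 0 reversed. The rule keeps every control library above every heat library, so leaving out a library could not reverse a sign. A replicate block leaves the fold change as it is in this balanced design. These counts are thus partly fixed in advance and are no evidence that the falls are stable.

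Among the 3 miRNAs, edgeR on recovered reads called 2 and DESeq2 1 at an unadjusted p, and leaving out 1 library gave 0 to 1. All 3 log2 fold changes stayed negative in every alternative run. Same-numbered libraries did not deviate together (RNA-seq r of -0.14, -0.06 and 0.14, small RNA r of -0.07, 0.08 and -0.09). With 3 libraries in a group this cannot settle whether the numbers mark pairs, and no pairing was used in the main fit. With a replicate block 2479 unigenes were called lower and 3296 higher, with 244 members among those lower, and 0 of the 3 miRNAs were called.

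Depth limits the miRNA values, and the reads behind a TPM value are unknown.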
